A study of Mus musculus with 8 samples.

Results

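The comparison set mouse embryonic stem cells after 10 h of 4OHT against the same kind of cells after 8 h, and so read the last 2 h of the treatment. Its members were the 4 arrays that the labels place at 10 h (replicates 1 and 2) and at 8 h (replicates 1 and 2), out of 8 single-colour Agilent arrays in the series. Every culture grew in embryonic stem cell medium with LIF and 250 nM PD173074, an inhibitor of the FGF receptor kinases, so the cells of all groups were kept under a block of FGF signalling. The other 4 arrays were 2 from untreated cells and 2 from cells that had 250 nM 4OHT for 8 h before 2 h with PD0325901, a MEK inhibitor, at 1 µM. 4OHT, 4-hydroxytamoxifen, was at 250 nM at both 8 h and 10 h. The labels name neither a cell line nor a protein that 4OHT acts on. The design text calls the replicates biological, but nothing in the sources says how the cultures were kept apart, so the p-values measure only the spread between these samples.

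ERK is the last kinase of the RAF, MEK and ERK cascade. It switches on immediate early genes within minutes, then genes for its own inhibitors (the DUSP phosphatases, Sprouty and Spred proteins). Secreted ligands and proteases follow later. In mouse embryonic stem cells the cascade is known for moving cells out of the naive state, which is held by factors such as Nanog, Klf4, Tbx3 and Esrrb, and an inhibitor of FGF receptors or of MEK keeps that state. The series title names ERK. The comparison asks which transcripts were still moving at the end of the 4OHT course and which had levelled off.

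On each of the 4 arrays, 30218 to 37789 spots were well above background and 0 were saturated. The 8 stem cell markers (Pou5f1, Sox2, Nanog, Zfp42, Dppa5a, Utf1, Sall4 and Tdgf1) were above background on all 4 arrays, and their summed signal, in units of the array's 75th percentile, was 893 and 845 at 8 h and 890 and 855 at 10 h. The 7 primitive endoderm markers summed to 3.44 and 0.957 at 8 h and 3.64 and 1.02 at 10 h, so they stood apart by replicate and not by time. The 6 trophoblast markers summed to 6.88 and 8.70 at 8 h and 7.27 and 11.4 at 10 h, and 5 of them were above background on all 4 arrays. The 8 fibroblast markers summed to 37.4 and 17.7 at 8 h and 41.1 and 19.1 at 10 h, most of it from Thy1, which stem cells also express, and Dcn, Lum and Postn were above background on none of the 4 arrays.

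In limma's fit with the replicate number as a block, 0 of 22686 genes (0%) passed an adjusted p of 0.05 between 10 h and 8 h, and the smallest adjusted p was 0.151. At an unadjusted p under 0.05 there were 2829 genes (12.5%), 1372 higher at 10 h (6.05%) and 1457 lower (6.42%). With limma's prior following signal intensity and made robust to outlying genes, 163 genes (0.719%) passed the adjusted threshold, 109 higher (0.48%) and 54 lower (0.238%). The median gene differed by 1.07-fold, and the fitted difference was over 1.5-fold for 508 genes higher at 10 h (2.24%) and 655 lower (2.89%). Both 10 h arrays lay above both 8 h arrays for 4455 genes (19.6%) and below both for 4335 (19.1%). A gene is called held below when it did not pass and the 95% interval of its difference lay wholly within 1.5-fold either way, and 16943 genes (74.7%) were held. All differences are log2, 10 h minus 8 h, of signals set against each array's 75th percentile, given with the standard error of the fit. In whole cultures, fewer cells of a type and less RNA per cell cannot be told apart.

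The share of higher genes depended on the scaling. Of the genes at an unadjusted p under 0.05, 48.5% were higher at 10 h in the main scaling and 49.1% after quantile normalization, but 70.5% when arrays were centred on their median and 61.7% with normexp background correction. The median difference over all genes was 0.00, −0.01, 0.06 and 0.01 under these 4 scalings, in that order.

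The 2 replicate pairs use 4 different arrays and so give separate readings of the last 2 h. Over 20124 genes above background on all 4 arrays, the differences of replicate 1 and of replicate 2 correlated across genes with r = 0.376 (rho = 0.481). Genes are not independent replicates, and the arrays of a pair share a row of the slide. Both 8 h arrays lay in slide column 2 and both 10 h arrays in column 3. Any effect of the column would enter both pairs alike, so agreement of the pairs cannot tell it apart from time. In replicate 1, 889 of all genes differed by more than 1.5-fold, and 660 of them (74.2%) had the same sign in replicate 2, where 322 also passed 1.5-fold. In replicate 2, 1946 genes passed 1.5-fold and 1267 of them (65.1%) had the same sign in replicate 1. Replicate 2 was the wider pair, with an SD of the differences over all genes of 0.482 against 0.268. Over the 20124 genes above background the SDs were 0.284 and 0.218. Of those past 1.5-fold in replicate 1, 82.2% had the same sign in replicate 2, and 70.6% the other way round.

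**Figure D1:**
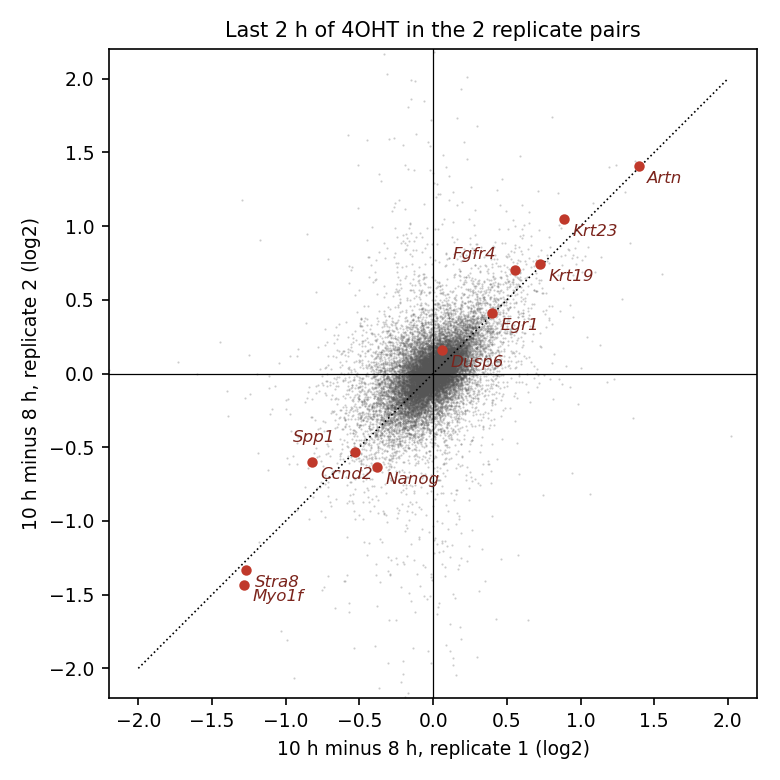
Difference of each gene between 10 h and 8 h of 4OHT (log2) in replicate 1 (horizontal) and replicate 2 (vertical), for 20124 genes above background on all 4 arrays; the dotted line marks equal values, 33 genes lie outside the axes, and 11 genes of the text, picked after their values were seen, are marked in red. Most genes lie close to 0 in both pairs, and Artn, Krt19 and Stra8 lie near the dotted line.

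For the large responders to 4OHT, the median difference of the last 2 h had the sign of the response. The response contrast gives the 8 h and 10 h arrays the same weight, so sorting genes by it does not push their difference between 10 h and 8 h either way. Calling does favour genes whose 2 pairs agree, since disagreement between pairs enters the residual spread. The balance of signs is therefore described, and the held shares given below depend on that same spread. The contrast, the mean of 8 h and 10 h against untreated cells, called 9341 genes (41.2%, adjusted p under 0.05, limma), 4192 higher (18.5%) and 5149 lower (22.7%) than untreated cells. Of 949 genes at least 2-fold higher with 4OHT and above background at both times, the median difference in the last 2 h was 0.16, and 578 were higher at 10 h in both pairs while 183 were lower in both. Over all genes the shares were 34.5% higher in both pairs and 33.3% lower in both. Of 734 genes at least 2-fold lower with 4OHT the median was −0.15, with 113 higher in both pairs and 436 lower in both. The first median ran from 0.13 to 0.21 over the 4 scalings, and the second from −0.15 to −0.06, its smallest size being with normexp. By interval, 481 of the 949 (50.7%) and 446 of the 734 (60.8%) were held. The share over all genes, dim ones included, was 74.7%. In the run limited to genes above background on all 4 arrays, 16958 of 20144 were held.

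Dusp6, Spry2 and Spry4, brakes of the ERK cascade, were held. Dusp6, the ERK phosphatase, read 3.43 and 3.46 in untreated cells, 6.32 and 6.26 at 8 h and 6.38 and 6.42 at 10 h. Both 10 h arrays lay above both 8 h arrays, by a margin that is small beside the step from untreated cells. The difference was 0.11 ± 0.08 with a 95% interval of −0.11 to 0.33, against steps of 2.84 at 8 h and 2.95 at 10 h over untreated cells, which share the untreated arrays. Spry2, an inhibitor of receptor tyrosine kinase signalling, read 2.16 and 2.37 at 8 h and 2.41 and 2.44 at 10 h, a difference of 0.16 with an interval of −0.05 to 0.37. Spry4, its relative, had the largest difference of the held feedback genes. It read 2.37 and 2.10 at 8 h and 2.65 and 2.53 at 10 h, 0.35 ± 0.09 higher (interval 0.12 to 0.58, adjusted p = 0.282, limma).

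Of all 19 feedback genes, 14 (73.7%) were held, near the 74.7% over all genes. At an unadjusted p under 0.05, 4 were higher and 0 lower, against 6.05% and 6.42% of all genes. In both pairs 10 were higher and 5 lower, against 34.5% and 33.3% of all genes. The lowest was Dusp8, at −0.76 with an interval of −1.76 to 0.23, which read −3.35 and −2.21 at 8 h and −3.37 and −3.72 at 10 h, so only replicate 2 was lower by much, and the difference was −0.28 with normexp. Their median difference was 0.08, beside 0.00 over all genes. Dusp5, a nuclear ERK phosphatase, read −0.71 and −0.81 at 8 h and −0.46 and −0.13 at 10 h, a difference of 0.46 with an interval of 0.10 to 0.83. Dusp14 stood 0.94 below untreated cells at 8 h (−0.94) and read 0.53 higher at 10 h than at 8 h. Both differences share the 8 h arrays, so an 8 h reading that was too low would by itself give opposite signs. The same limit holds below for Cldn4, Tfap2c, Dll1, Ccnd1 and Runx1t1, and with a high 8 h reading for Ccnd2. Errfi1, a feedback inhibitor of the EGF receptor, differed by 0.26 and was held. Il17rd, Spred1, Spred2, Spry1, Dusp4, Dusp7 and Dusp9 were held too, with differences from −0.17 to 0.08. These and the further list members described below were picked from the lists after their values were seen, except where the naming rule took them.

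Of the ETS factors that ERK signalling is known to induce, Etv4 and Etv5 were held. Etv4 read 6.0 and 5.98 at 8 h and 6.12 and 6.09 at 10 h, a difference of 0.12 (interval −0.06 to 0.30), after a step of 1.79 over untreated cells at 8 h. Etv5 was flat throughout, at 6.50 and 6.67 in untreated cells, 6.55 and 6.56 at 8 h and 6.55 and 6.52 at 10 h. Of 16 ETS genes 15 passed the filter on dim probes and 11 of these were held (73.3%, near the 74.7% over all genes). The member with the smallest p was Elf1, at −0.75 and −0.63 at 8 h and −0.32 and 0.12 at 10 h. Its difference was 0.59 ± 0.10 (interval 0.32 to 0.85), and its other probe gave 0.32. Myc, the growth regulator, was held at 3.97 and 4.14 at 8 h and 4.00 and 4.28 at 10 h, where the arrays of the 2 times overlapped.

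Immediate early genes read higher at 10 h in most members. Of the AP-1 and EGR list 16 genes were chosen and 15 tested. In both pairs 10 were higher and 2 lower, against 34.5% and 33.3% of all genes. By interval 6 were held (40.0%, against 74.7% of all genes). Egr1, a zinc finger factor, read 0.83 and 1.42 in untreated cells, 4.76 and 5.15 at 8 h and 5.16 and 5.56 at 10 h. The 10 h arrays were above both 8 h arrays, the lower of them only just. The difference was 0.40 ± 0.08 (interval 0.21 to 0.60, adjusted p = 0.218, limma). Fos, the AP-1 subunit, read −0.09 and 0.61 at 8 h and 0.41 and 1.23 at 10 h, 0.56 ± 0.20 higher, and the times overlapped because replicate 2 ran above replicate 1. Fosl1 and Maff differed by 0.44 and 0.31, each higher in both pairs. The median of the list was 0.31 and stayed above 0 under each scaling (0.19 to 0.37).

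The second list of immediate early genes held 24 tested members of 25, of which 19 were higher in both pairs and 2 lower in both. At an unadjusted p under 0.05, 11 were higher and 1 lower, against 6.05% and 6.42% of all genes. By interval 13 were held (54.2%, against 74.7% of all genes). Plk3, a stress-responsive polo-like kinase, read 4.26 and 4.53 at 8 h and 4.67 and 5.04 at 10 h. Both 10 h arrays were above both 8 h arrays. Its difference of 0.46 ± 0.07 (interval 0.29 to 0.64) had an adjusted p of 0.182 (limma) and passed with the intensity-following prior, as did that of Egr1. Arc, a cytoskeletal gene of neuronal activity, differed by 0.47, Ier3 by 0.46 and Phlda1 by 0.42. Gadd45b, a stress sensor, was the member that read lower at that p, at 0.51 and 0.73 at 8 h and 0.07 and 0.26 at 10 h.

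Of the ligands of the EGF receptor, Areg and Ereg passed the filter on dim probes only through the 10 h arrays, where they were highest, so the filter favoured a higher value at 10 h for both. Amphiregulin (Areg) read −4.98 and −4.11 at 8 h and −3.93 and −2.56 at 10 h, and was detected above background on both 10 h arrays and on 1 of the 8 h arrays. Its difference was 1.30 ± 0.18 (adjusted p = 0.18, limma) and 0.47 with normexp. Epiregulin (Ereg) differed by 0.82, and by 0.28 with normexp. Hbegf, the heparin-binding ligand of the same receptor, was bright at both times, at 4.14 and 3.93 and then 4.48 and 4.24, and its difference of 0.33 was within the held range. Plaur, the urokinase receptor, differed by 0.39 and Mmp9, a matrix protease, by 0.54 (0.35 with normexp). Of 28 genes in this list 20 were tested and 8 did not pass the filter. Of the 20, 10 were held, against 74.7% of all genes. In both pairs 11 were higher and 4 lower, against 34.5% and 33.3% of all genes. At an unadjusted p under 0.05, 7 were higher and 0 lower, against 6.05% and 6.42% of all genes. Areg is counted among the 11 and the 7, though the filter had favoured its higher value at 10 h.

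FGF genes split. Fgfr4, one of the FGF receptors, stood 4.16 above untreated cells at 8 h and 4.79 at 10 h. It read 2.66 and 2.26 at 8 h and 3.21 and 2.97 at 10 h, with no overlap. The difference was 0.63 ± 0.09 (interval 0.41 to 0.85), its other probe gave 0.52, and it passed with the intensity-following prior. Of the 12 tested, 6 were held, 4 were higher in both pairs and 5 lower in both.

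Keratins and other epithelial genes were the list with the highest median. Of 16 genes, 15 were higher at 10 h in both pairs and 0 lower in both, against the shares of 34.5% and 33.3% over all genes. At an unadjusted p under 0.05, 10 were higher and 0 lower, against 6.05% and 6.42% of all genes. By interval 4 were held, against 74.7% of all genes. After adjustment 0 were called, while 7 passed with the intensity-following prior, against 0.719% of all genes. The median difference was 0.52, at 0.40 in replicate 1 and 0.62 in replicate 2, and 0.42 to 0.58 under the other scalings.

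Krt19, a small keratin of simple epithelia, read 0.87 and 0.02 in untreated cells, 1.46 and 0.73 at 8 h and 2.19 and 1.47 at 10 h. At each time both arrays lay above both arrays of the time before, except that replicate 2 at 8 h was below replicate 1 of untreated cells. The difference was 0.73 ± 0.06 (interval 0.57 to 0.90, adjusted p = 0.18, limma), beside a step of 0.65 over untreated cells at 8 h. Krt18, a keratin of simple epithelia, read 4.72 and 4.91 and then 5.27 and 5.57, a difference of 0.61. The difference of its partner Krt8 was 0.33 and was held. Krt23 was not above background in untreated cells, read 0.00 and 0.44 at 8 h and 0.89 and 1.49 at 10 h, and differed by 0.97 ± 0.18. It was at least 32.8-fold above untreated cells at 8 h and at least 64.1-fold at 10 h, where the floor is the lowest signal well above background on the untreated arrays or the probe's own signal if higher.

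Ovol1, a transcription factor of epithelial differentiation, read −1.35 and −0.98 at 8 h and −0.49 and 0.01 at 10 h, with no overlap and a difference of 0.93. The tight junction claudins Cldn4, Cldn6 and Cldn7 differed by 0.61, 0.50 and 0.53. Cldn4 stood 0.88 below untreated cells at 8 h (−0.88), so its value at 10 h was closer to the untreated level. The cadherin Cdh1 and the adhesion molecule Epcam were held, at 0.21 and 0.15. Krt7 was the 1 member whose pairs had opposite signs, with a fitted difference of −0.41 and an interval of −1.35 to 0.53 (−0.05 with normexp).

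**Figure D2:**
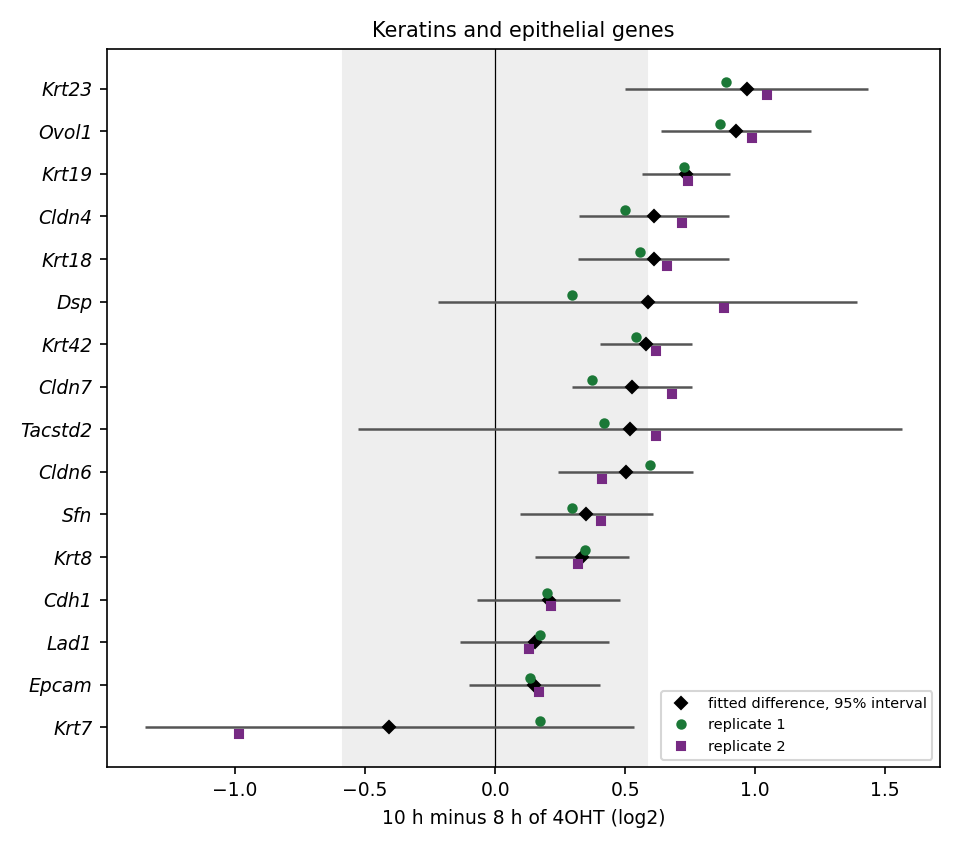
Difference between 10 h and 8 h of 4OHT (log2, horizontal) for the 16 keratin and epithelial genes, with replicate 1 as circles, replicate 2 as squares, and the fitted value (diamond) with its 95% interval; the grey band is 1.5-fold either way. In 15 of 16 genes both pairs lie above 0, and Krt7 has 1 pair on each side.

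Of the naive pluripotency factors, Nanog, Tbx3 and Klf4 read lower at 10 h in both pairs. Nanog, a core naive factor, read 4.78 and 4.83 in untreated cells, 2.31 and 2.12 at 8 h and 1.93 and 1.48 at 10 h. Both 10 h arrays were below both 8 h arrays. The difference was −0.51 ± 0.13 (interval −0.85 to −0.16, adjusted p = 0.289, limma), but its other kept probe gave 0.22, the opposite sign. Tbx3, a T-box factor, read 3.88 and 3.47 and then 3.50 and 2.99, a difference of −0.43 (interval −0.70 to −0.16). Klf4 read 4.13 and 3.63 and then 3.93 and 3.16, with a difference of −0.33 and an interval that reached 0.07. For both genes the times overlapped across replicates, and each pair was lower at 10 h.

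Klf2, a related factor, was held at 0.01 but with a wide interval of −0.48 to 0.50, since replicate 1 read 4.96 and then 5.18 and replicate 2 read 4.71 and then 4.50. Esrrb, an orphan nuclear receptor, read 6.55 and 6.30 and then 6.48 and 5.87, a difference of −0.26 with an interval of −0.65 to 0.13. Jam2, an adhesion molecule, had the smallest p of the list, at 4.16 and 4.19 and then 3.81 and 3.85, with a difference of −0.35 that was held. Of all 21 genes, 11 were lower in both pairs and 3 higher in both, against 33.3% and 34.5% of all genes. By interval 15 (71.4%) were held, close to the share over all genes. At an unadjusted p under 0.05, 4 were lower and 0 higher, against 6.42% and 6.05% of all genes. The median of the 21 was −0.05 in the main scaling and 0.00 when arrays were centred on their median.

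All 18 general pluripotency factors were held. Pou5f1, which encodes Oct4, read 6.80 and 6.81 at 8 h and 6.82 and 6.82 at 10 h, and its interval was −0.24 to 0.27. Sox2, its partner factor, read 4.31 and 4.28 and then 4.29 and 4.23. Gdf3, a TGF-beta family ligand, had the lowest difference of the 18, at −0.18.

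**Figure D3:**
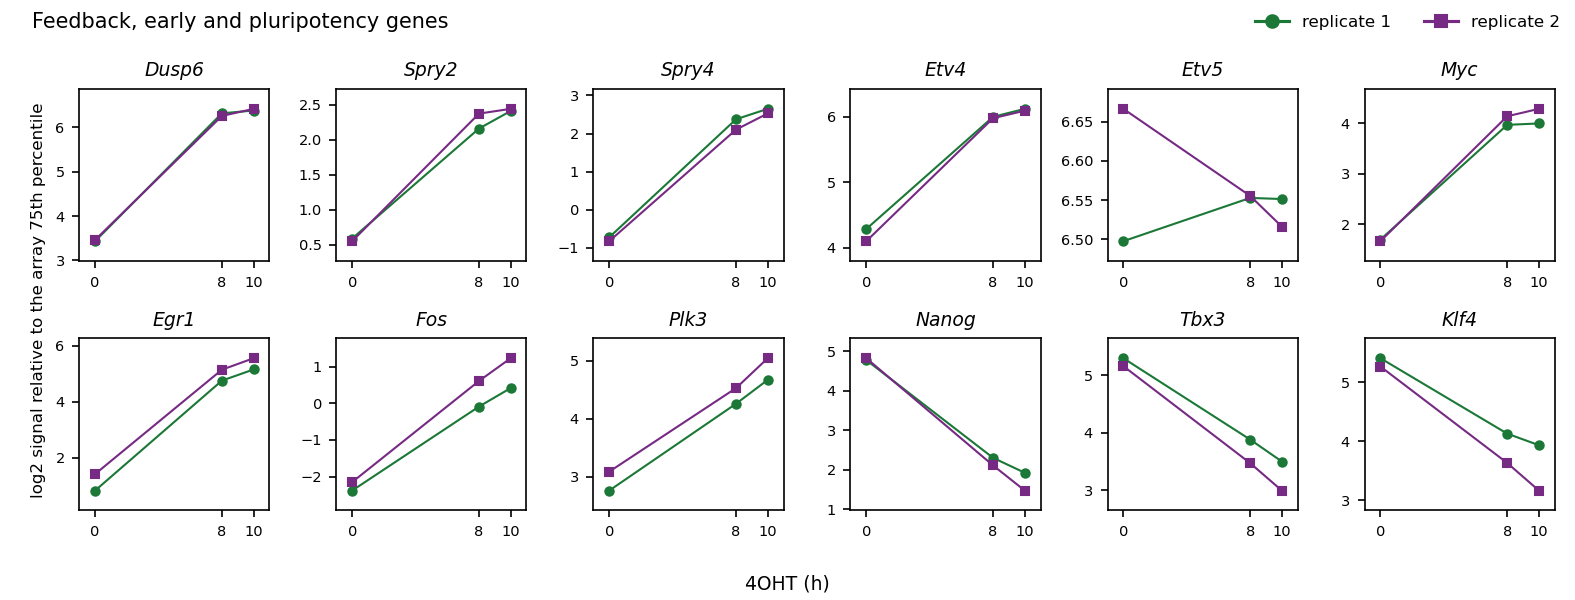
Log2 signal relative to the array's 75th percentile (vertical, each panel on its own scale) against hours of 4OHT for 12 genes, with replicate 1 as circles and replicate 2 as squares. Dusp6, Etv4 and Myc bend to a near level line after 8 h, Egr1, Fos and Plk3 go on upward in both replicates, and Nanog, Tbx3 and Klf4 go on downward.

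Formative and primed epiblast genes mark cells leaving the naive state. Of 18 genes, 10 were higher in both pairs and 6 lower in both, against 34.5% and 33.3% of all genes. By interval 10 were held (55.6%, against 74.7% of all genes). At an unadjusted p under 0.05, 6 were higher and 0 lower, against 6.05% and 6.42% of all genes. Their differences ran from −0.36 for Sall2 (−0.19 with normexp) to 0.59 for Lef1. Dnmt3a, a de novo DNA methyltransferase, read −0.90 and −0.38 at 8 h and −0.34 and 0.20 at 10 h, where both 10 h arrays lay above both 8 h arrays. Its difference was 0.58 ± 0.08, beside a step of 0.47 over untreated cells at 8 h. Cdh2, the neural cadherin, differed by 0.49 and Lef1, a WNT effector, by 0.59, and their other probes gave 0.53 and 0.64. Otx2 and Pou3f1, factors of the formative state, differed by 0.22 and 0.15 and were held. Fgf5, the classical primed marker, was low at both times, at −3.83 and −3.36 and then −3.99 and −3.41.

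Trophoblast genes included some of the steepest 4OHT responses of the series and several that had levelled off. Cdx2, the trophectoderm factor, stood 6.37 above untreated cells at 8 h and 6.53 at 10 h, reading 2.07 and 2.60 and then 2.06 and 2.95, and was held. Eomes was held at −0.01. Hand1, a factor of trophoblast and mesoderm that is also on the streak and BMP lists, read −0.89 and −1.19 at 8 h and −0.35 and −0.55 at 10 h. Its arrays did not overlap between the times, and the difference was 0.59 ± 0.09. It was at least 13.3-fold above untreated cells at 8 h and at least 20.0-fold at 10 h. Tfap2c, an AP-2 factor, stood 1.76 below untreated cells at 8 h (−1.76). It read 0.73 higher at 10 h than at 8 h, from 0.72 and 0.59 to 1.45 and 1.33, and both differences share the 8 h arrays. Of 19 tested of 20, 10 were held (52.6%, against 74.7% of all genes). In both pairs 10 were higher and 2 lower, against 34.5% and 33.3% of all genes. The keratins Krt8, Krt18 and Krt19 counted here too.

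Endoderm, streak and neural genes had few members at an unadjusted p under 0.05, though none of the 3 lists was held more often than all genes (74.7%). Of 24 primitive endoderm genes 21 were tested, 15 were held (71.4%) and 0 had an unadjusted p under 0.05 in either direction. Gata6, the endoderm factor, read 0.27 and −1.75 at 8 h and 0.36 and −1.55 at 10 h, so the replicates were further apart than the times. Pdgfra, a receptor of the same lineage, was above background on 1 of 2 arrays at each time. Of 16 tested streak, posterior and mesoderm genes 9 were held (56.25%), and 1 was higher and 0 lower at that p. T, the streak factor also called brachyury, read −1.39 and −1.35 and then −1.45 and −0.69, and only replicate 2 was higher. Of 17 neural and Notch genes tested of 23, 11 were held (64.7%), and 1 was higher and 0 lower at that p. The lowest was Hes3, at −2.65 (−0.63 with normexp), which did not reach that p. Dll1, a Notch ligand that stood 2.25 below untreated cells at 8 h (−2.25), read 0.69 higher at 10 h (0.24 with normexp), from −4.34 and −3.73 to −3.85 and −2.84.

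Among developmental signalling pathways the lists went both ways. Lefty1, a Nodal antagonist, stood 5.77 below untreated cells at 8 h and 5.94 at 10 h (−5.77 and −5.94) and differed by −0.17 between the times, with overlap. Lefty2 read 1.07 and 0.97 and then 0.70 and 0.59, a difference of −0.38. Smad7, an inhibitor of TGF-beta and BMP signalling, read 2.82 and 2.52 and then 2.51 and 2.27, a difference of −0.28 that was held. Id1 and Msx1, BMP targets, differed by 0.55 and 0.68, while Smad6 and Bmp7 differed by −0.54 and −0.35 (−0.35 and −0.14 with normexp). Of 15 BMP genes tested, 6 were held (40.0%, against 74.7% of all genes). At an unadjusted p under 0.05, 4 were higher and 3 lower, against 6.05% and 6.42% of all genes. Of 18 WNT genes, 6 were held (33.3%), and 4 were higher and 1 lower at that p. Sp5, a direct WNT target, was at 0.50 and Sp8 at 0.56 (0.20 with normexp).

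Retinoic acid genes included Stra8, one of the genes with the smallest p on the lower side. Stra8, the retinoic acid induced gene that licenses meiosis, read 0.92 and 0.47 in untreated cells, −0.19 and −0.95 at 8 h and −1.45 and −2.28 at 10 h. Both 10 h arrays were below both 8 h arrays, and the difference was −1.30 ± 0.12 (adjusted p = 0.18, limma), beside a step of −1.26 at 8 h. Dhrs3, a retinaldehyde reductase, read −0.38 and −0.72 and then −1.19 and −1.25, a difference of −0.67. Both passed with the intensity-following prior. Cyp26a1, which degrades retinoic acid, stood 5.61 above untreated cells at 8 h and was held, at 0.83 and 0.81 and then 0.86 and 1.04. Aldh1a3, which makes retinoic acid, read 0.47 and 0.15 and then 1.19 and 1.38, a difference of 0.98 ± 0.30. Its relatives Aldh1a1, the lowest of the list, and Aldh1a2 differed by −1.83 and −0.15 (−0.49 and −0.07 with normexp). The list had 18 tested members of 20, with 12 held (66.7%, against 74.7% of all genes). At an unadjusted p under 0.05, 2 were higher and 2 lower (Stra8 and Dhrs3), against 6.05% and 6.42% of all genes.

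Of 15 tested LIF and STAT3 genes 12 (80.0%) were held, beside 74.7% over all genes. Spp1, which encodes osteopontin, had the smallest p, at 3.58 and 3.64 at 8 h and 3.05 and 3.11 at 10 h. Its replicates lay close together and the times did not overlap, with a difference of −0.53 ± 0.06 (interval −0.68 to −0.38). Socs3, the feedback inhibitor of LIF signalling, differed by −0.31 and was held.

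Sterol synthesis genes shared small positive differences. Of 25 genes, 20 were higher at 10 h in both pairs and 4 lower in both, against 34.5% and 33.3% of all genes. Their median was 0.16 and stayed above 0 under each scaling (0.14 to 0.22). Most lay inside the margin, with 21 held (84.0%, against 74.7% of all genes). Msmo1, a sterol demethylation enzyme, read 3.45 and 3.34 in untreated cells, 4.49 and 4.33 at 8 h and 4.93 and 4.89 at 10 h. The 10 h arrays lay above both 8 h arrays, and the difference was 0.50 ± 0.06. Insig1, which retains the sterol sensor in the endoplasmic reticulum, differed by 0.55 (0.37 with normexp).

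Ribosome biogenesis genes and genes of G2 and M phase were mostly flat, and genes of G1 and S phase less so. All 24 ribosome biogenesis and MYC target genes were held, with a median of 0.04 that was −0.01 after quantile normalization. Odc1, the polyamine enzyme, was the highest at 0.25. Of 23 genes of G2 and M phase 22 were held (95.7%, against 74.7% of all genes). Of 21 genes of G1 and S phase 15 were held (71.4%, near the share over all genes), and the D cyclins differed in sign. Ccnd2 read 2.54 and 2.07 and then 1.72 and 1.47, a difference of −0.71 ± 0.08, while Ccnd1 read 2.83 and 3.30 and then 3.30 and 3.64, a difference of 0.41. Ccnd2 stood 1.72 above untreated cells at 8 h and 1.01 at 10 h, and Ccnd1 stood 0.73 below at 8 h (−0.73), so both were nearer to the untreated level at 10 h.

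Of 21 p53 target and apoptosis genes, 16 were higher in both pairs and 2 lower in both, against 34.5% and 33.3% of all genes. By interval 17 were held (81.0%, against 74.7% of all genes). Fas, the death receptor, was below background on both 8 h arrays and above it on both 10 h arrays, at least 1.33-fold higher, and it passed the filter through the 10 h and the inhibitor arrays. Mdm2, the ligase that limits p53, and Bbc3, the apoptosis activator PUMA, differed by 0.35 and 0.28. Of 18 DNA methylation and Polycomb genes 16 were held. Among 20 tested cytoskeletal targets of SRF and YAP, 15 were held, and the smooth muscle genes Myl9 and Tagln were lower in both pairs, with differences of −0.74 (−0.49 with normexp) and −0.85, while Fhl2 was at 0.60. Of 18 tested basement membrane, matrix and integrin genes 12 were held. In both pairs 5 were higher and 9 lower, against 34.5% and 33.3% of all genes. The median of the list was −0.05, and 0.00 when arrays were centred on their median. Itga3, an integrin chain with the smallest p of this list, differed by 0.42. Of 19 stress response genes tested 16 were held and Vldlr, the VLDL receptor, was at 0.67 (0.36 with normexp). Of 22 glycolysis and hypoxia genes 18 were held and Ndrg1, a hypoxia-induced gene, was at 0.41. The estrogen receptor list, of interest because 4OHT binds that receptor, had 8 of 13 genes tested, 5 held and 2 higher at an unadjusted p under 0.05, beside 6.05% of all genes. The 2 were Ccnd1 and Areg, and Areg had passed the filter only through the 10 h arrays.

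**Figure D4:**
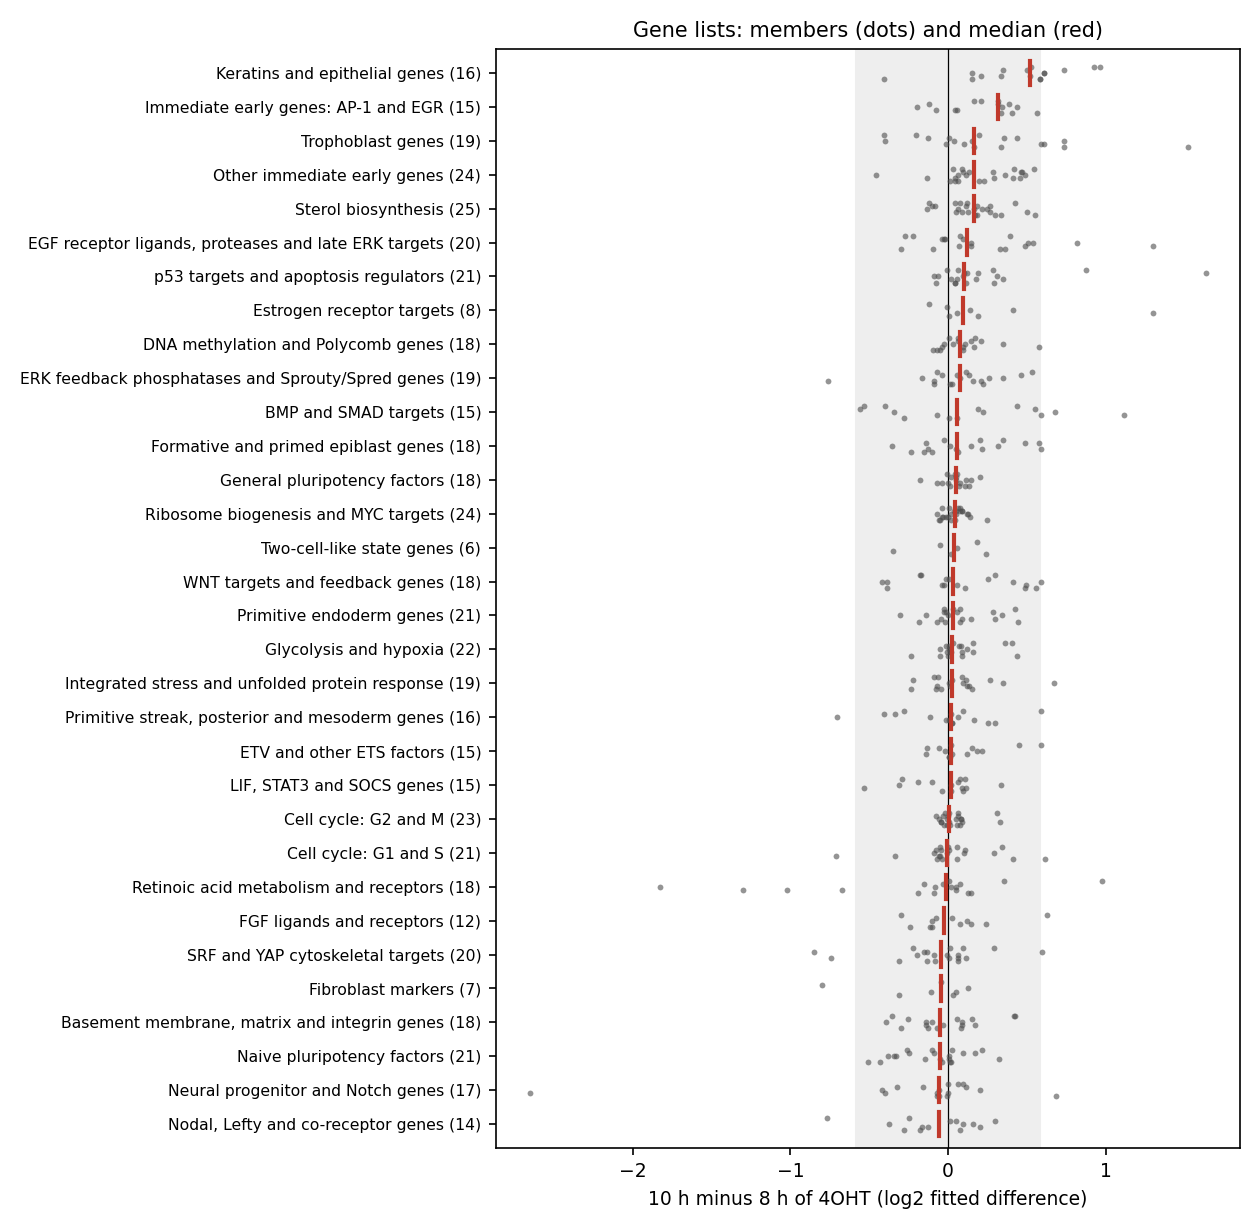
Fitted difference between 10 h and 8 h of 4OHT (log2, horizontal) for the tested members of the 32 gene lists, each gene as a dot and the list's median as a red bar, lists ordered by median with the number tested in brackets; the grey band is 1.5-fold either way. Keratins and epithelial genes have the highest median, at 0.52, and most members of the other lists lie in the band.

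The 6 genes with the smallest p in each direction included Krt19 and Stra8, described above, and 10 others. Artn, a ligand of the GDNF family, read −3.16 and −2.10 at 8 h and −1.76 and −0.69 at 10 h. Its pairs were almost equal, and the difference of 1.40 ± 0.08 (adjusted p = 0.151, limma) stood beside a step of 1.09 over untreated cells at 8 h, and was 0.89 with normexp. Aig1, a lipid hydrolase, differed by 0.75 and its other probe by 0.52. Baalc differed by 0.93 (0.56 with normexp). Shisa6, a glutamate receptor partner, differed by 1.85 (0.60 with normexp) and was above background on 1 of 2 arrays at 8 h and on both at 10 h. It passed the filter on dim probes through the 10 h and the inhibitor arrays, and not through the 8 h arrays. Runx1t1, a transcriptional corepressor, read −0.41 and −0.03 in untreated cells, −2.34 and −1.83 at 8 h and −1.37 and −1.04 at 10 h, so its 10 h arrays lay between the 8 h and the untreated arrays. Its difference was 0.88, and 0.59 with normexp.

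On the lower side, Myo1f, an unconventional myosin, read 2.06 and 2.38 in untreated cells, −0.25 and 0.30 at 8 h and −1.53 and −1.13 at 10 h. The times did not overlap, the difference was −1.36 ± 0.10 and its other probe gave −1.45. Col9a2, a collagen IX chain, read 0.23 and 0.38 and then −0.48 and −0.39, a difference of −0.74. E130201H02Rik, Colq (the collagen tail of acetylcholinesterase) and Sh3rf2 differed by −1.22, −0.92 and −0.80, and each was above background on only 1 of the 10 h arrays. With normexp they were −0.15, −0.23 and −0.14. The other probe of Colq gave 0.65, the opposite sign, and the mean of its probes −0.13. Of the 70 genes that the naming rule took, 15 had another kept probe, and for 12 of them every other probe had the same sign.

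The steepest responders to 4OHT against untreated cells, chosen by that contrast, gave both patterns. Among the genes highest with 4OHT, Grm6, a glutamate receptor, and Nol4 differed by 0.24 and −0.16 with intervals too wide to be held (−0.46 to 0.93 and −0.90 to 0.59), Slc35f1 by 0.50 and Col6a5, a collagen VI chain, by 0.74. Among those lowest with 4OHT, Spic, an ETS factor, read −2.93 and −3.42 and then −2.85 and −3.47, and was held at 0.01. Neurog3, a proneural factor, was held at 0.06 and Chst8, a sulfotransferase, at 0.21. Dio3, which inactivates thyroid hormone, read −4.27 and −3.85 and then −3.64 and −3.57, a difference of 0.45 (0.17 with normexp), and Tlx2, a homeobox gene, was at −0.48 (−0.15 with normexp).

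Cells that spent the same 2 h with PD0325901 were set against the 8 h group as well. Both contrasts share the 8 h arrays, so their values are given only side by side. The inhibitor cells are recorded with 8 h of 4OHT and the others with 10 h. The 2 sides may thus differ in 4OHT over those 2 h as well as in the inhibitor. For Egr1 the difference from 8 h was 0.40 without the inhibitor and −4.99 with it, for Fos 0.56 and −3.79, for Myc 0.09 and −5.17 and for Plk3 0.46 and −0.85, and those with the inhibitor passed the threshold (limma). Nanog read −0.51 without it and 1.15 with it, and Tbx3 −0.43 and 0.96. For another set of genes the sign was the same in both: Artn read 1.40 and 1.62, Krt19 0.73 and 0.60, Aig1 0.75 and 0.62, Baalc 0.93 and 0.98, Stra8 −1.30 and −1.07 and Myo1f −1.36 and −1.12, and those with the inhibitor passed the threshold. All of these were taken for a small p between 10 h and 8 h, and the shared 8 h arrays favour the same sign in both contrasts. Sh3rf2, taken in the same way, had opposite signs, at −0.80 and 1.41. Etv4 gave 0.12 and −0.19, Spp1 −0.53 and 0.05 and Krt23 0.97 and −0.10, and in these 3 genes the value with the inhibitor did not pass.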

How the data were processed

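Total RNA was labelled and hybridised to single-channel Agilent arrays, on 1 slide with 1 scan date. The labels name Cy5 and the scanner files a green channel. Slide row goes with the replicate number, and slide column with the group, from which it cannot be told apart. The processed signal is a background-corrected intensity that the authors deposited unscaled, made with Feature Extraction (version 11.0.1.1), per the file headers. The authors' deposited value table holds the same intensity. The number of arrays limits the precision: the median half-width of the 95% interval was 0.239 (log2).

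Of 62976 spots, 3671 control spots and 169 to 249 outlier spots per array were left out. Of 55681 probes, 27656 (49.7%) were named by matching RefSeq accessions to a table of assembly GRCm38.p6. Log2 of the intensity minus the array's 75th percentile was fitted in R 4.3.3 with limma 3.58.1, after reading with Python 3.11.15, on all 8 arrays with group means and the replicate number as a block (residual degrees of freedom 3, prior 1.74), two-sided, with Benjamini-Hochberg adjustment over 22686 genes. For 27 features an array was missing, none of them a gene the naming rule took. The 30329 probes that exceeded background (the scanner software's mark) on both arrays of any group were kept, and the brightest stood for its gene (22687 features, 14493 with a symbol, 1 of them not testable). The replicate numbers pair the arrays: deviations from the group means of same-numbered arrays correlated at 0.287 to 0.356 in all 6 pairs of groups. The script was tested on simulated data.

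The arrays compared, the 32 gene lists and the naming rule were chosen with earlier results of these data known. The rule took the 6 genes with the smallest p in each direction where none was called, the member with the smallest p of each list, 22 fixed genes, and the 8 largest responses each way to 4OHT (70 genes). Lists are described by counts and medians, with no set test. Alternatives were other scalings, normexp on the median signals, filters on dim probes, the prior, the block, the 4 arrays alone, the mean of a gene's probes, the value table and leaving out each array. Some list members are not reported here.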

Additional observations from a re-analysis of the deposited data

How the results depend on the processing

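The count of genes passing the adjusted threshold between 10 h and 8 h was 0 with the main settings, 163 with the intensity-following robust prior and 2 (Myo1f and Stra8) with normexp background correction. It was 0 in the other settings apart from leaving out an array, where it ran from 0 to 1: Lrp3 without replicate 1 of 8 h and Btg1c without replicate 2 of 8 h, both named after their values were seen. Without the replicate block it was 0 too, with 15008 genes held and 6974 called for the 4OHT response, against 16943 and 9341 with the pairing. Held genes ran from 14149 to 17124 when an array was left out and reached 21695 with normexp, and called responses ran from 6504 to 8875. Of the 70 genes the naming rule took, 57 kept their sign in every setting run (18 settings, but 17 for the 7 genes that a stricter filter removed), and 13 turned in at least 1: Etv5, Klf2, Pou5f1, Sox2, Pdgfra, Fgf5, Lefty1, T, Grm6, Nol4, Spic, Neurog3 and Cidea. In at least 1 setting 19 passed. For 18 of the 52 with a difference over 0.2 in size, the difference was over 1.5 times that with normexp. The cause of the moved counts was not tested. Probes near background limit the low genes: the 2547 not above it on all 4 arrays had an SD of the differences of 0.503 in replicate 1 and 1.19 in replicate 2.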
